A study of Mus musculus with 3 samples.

Results

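Strongly GFP positive cells (GFP+++) were compared with weakly GFP positive cells (GFP+) sorted from the same tissue, which sets a fraction rich in immature olfactory sensory neurons (OSN) against one with more mature OSN. The folds used 2 of the 3 arrays of the series. The GFP negative fraction (GFP-) served to show where a gene was brightest, and it also entered the floor and the choice of probe set. Of 18193 genes that the array names by 1 symbol, 11881 were compared, namely those whose signal passed a floor of 104, the pooled median of all probe sets, on at least 1 of the 2 arrays. Each gene was represented by its brightest probe set, and signals under the floor were raised to it. Each fraction was measured once, so there is no test and no replicate check, and a gene is called higher or lower only where its signals differ at least 2-fold.

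The epithelium was taken from male and female Tgn1-2G mice at postnatal days 5 to 8, and all 3 fractions carry this transgene. The arrays received RNA from 1000000 GFP+++ cells, 1300000 GFP+ cells and 6800000 GFP- cells, and the number 32 in the labels is read as the number of mice pooled for each fraction. As the submitters describe the sort, immature neurons were concentrated in GFP+++, mature neurons were only slightly concentrated in GFP+, and GFP- kept every cell type of the epithelium but few immature neurons. In this mouse line GFP is known to be driven by regulatory sequence of Neurog1, a proneural factor of neuronal progenitors.

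OSN are replaced throughout life from basal cells of the olfactory epithelium. A newly born neuron passes through a stage of axon growth, marked by Gap43 and Gng8, in which it sends an axon to the olfactory bulb. It then builds cilia, makes Omp and the cyclic AMP cascade that turns odorant binding into a current, and forms synapses in a glomerulus.

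The arrays were scaled alike by the submitters, each with a 2% trimmed mean of 500.0, but their median signals were 88.2 (GFP+++) and 107 (GFP+). The GFP+++ array had 10734 genes over the floor and the GFP+ array 11674. RNA integrity, read from the 3' over 5' ratio of control probe sets, was similar, at 1.46 and 1.31 for beta-actin and 0.726 and 0.717 for Gapdh. The mean signal of the 18S ribosomal RNA controls was 1968 in GFP+++ and 4977 in GFP+. The only error that could be estimated was that between probe sets of a gene, whose log2 folds had a pooled SD of 0.30 over 4640 genes. It contains nothing of the spread between mice, sorts or labelling reactions.

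Promoter sequences are shown for 5 genes whose signals differed in opposite directions or that stand for the transduction cascade, because regulation by EBF factors through a palindromic core is textbook knowledge for OSN genes. Each window runs from 250 bases before to 50 bases after the RefSeq start of the gene in GRCm38.p6. It is printed 5′ to 3′ on the strand of the gene, with any match to CCCNNGGG in capitals. Cnga2, Cnga4 and Slc24a4 encode parts of the transduction machinery, and Gng8 and Cntn2 mark the growing axon.
Cnga2 (chrX:71991599-71991898, plus strand): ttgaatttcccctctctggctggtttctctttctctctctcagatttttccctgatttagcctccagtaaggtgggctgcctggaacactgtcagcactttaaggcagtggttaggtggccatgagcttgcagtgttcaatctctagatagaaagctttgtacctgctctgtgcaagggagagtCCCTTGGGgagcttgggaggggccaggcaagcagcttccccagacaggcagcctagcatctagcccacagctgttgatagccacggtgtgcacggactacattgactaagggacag
Cnga4 (chr7:105404318-105404617, plus strand): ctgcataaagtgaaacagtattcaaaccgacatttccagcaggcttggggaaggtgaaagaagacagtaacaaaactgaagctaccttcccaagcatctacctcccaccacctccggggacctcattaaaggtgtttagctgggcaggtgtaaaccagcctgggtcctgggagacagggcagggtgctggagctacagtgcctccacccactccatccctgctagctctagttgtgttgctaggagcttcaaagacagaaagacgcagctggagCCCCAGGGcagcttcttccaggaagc
Slc24a4 (chr12:102128477-102128776, plus strand): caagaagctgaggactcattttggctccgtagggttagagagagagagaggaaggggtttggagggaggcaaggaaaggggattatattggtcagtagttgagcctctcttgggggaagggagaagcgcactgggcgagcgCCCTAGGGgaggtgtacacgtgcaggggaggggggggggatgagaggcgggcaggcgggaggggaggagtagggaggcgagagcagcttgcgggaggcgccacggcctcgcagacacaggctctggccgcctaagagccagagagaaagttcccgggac
Gng8 (chr7:16891536-16891835, plus strand): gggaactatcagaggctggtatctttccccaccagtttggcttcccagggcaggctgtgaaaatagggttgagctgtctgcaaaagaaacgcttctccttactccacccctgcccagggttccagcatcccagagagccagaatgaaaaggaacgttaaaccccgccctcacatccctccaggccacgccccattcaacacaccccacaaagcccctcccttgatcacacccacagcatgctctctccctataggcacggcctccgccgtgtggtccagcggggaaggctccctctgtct
Cntn2 (chr1:132542891-132543190, minus strand): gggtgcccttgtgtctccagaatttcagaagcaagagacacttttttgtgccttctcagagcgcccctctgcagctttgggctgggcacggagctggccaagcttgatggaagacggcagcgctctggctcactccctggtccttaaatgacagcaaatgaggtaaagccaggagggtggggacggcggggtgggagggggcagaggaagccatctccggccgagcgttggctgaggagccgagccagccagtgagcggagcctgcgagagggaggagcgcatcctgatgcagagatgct

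The core stands 66 bases before the start in Cnga2, 109 bases before it in Slc24a4 and 24 bases after it in Cnga4, and these letters are not in the windows of Gng8 and Cntn2. The search covered both strands, which for this palindrome are the same. Of 32851 RefSeq promoter windows, 13.67% hold the core. The shares that follow count genes, each with the core in any of its windows. They were 15.39% of all 27025 genes with a window and 21.42% of the 9636 compared genes that had one. Among genes at least 2-fold higher in GFP+++ it was 23 of 91 genes with a window (25.27%). Among genes at least 2-fold lower with GFP+ the brightest array it was 47 of 215 (21.86%), and among the other lower genes 171 of 637 (26.84%). In the transduction list 8 of 21 genes with a window held it, and in the growth cone list 4 of 14. The contrast between the printed windows therefore did not hold across these lists. The windows of Adcy3 and Pde1c lacked the core, and those of Ablim1 and Dpysl5 held it. The homeodomain core TAATTA was found in 5.29% of all windows. By gene it was in 6.12% of all genes with a window, 3.14% of compared genes and 0 genes of these lists, a difference that lists of this size cannot show. The E box CANNTG was in 72.3% of all windows. By gene it was in 74.99% of all genes with a window, 67.36% of compared genes, 80.95% of the transduction list and 71.43% of the growth cone list. A match is only a stretch of letters, not a binding site.

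Far more genes were lower than higher in GFP+++. In GFP+++, 117 of the genes compared (0.985%) passed 2-fold upward and 1109 (9.33%) passed it downward. The dimmer array lay under the floor for 11 of the higher and 359 of the lower genes, whose folds are lower bounds. The lower genes were split in 2 by the GFP- signal. For 831 of them the GFP- array was brighter than the GFP+ array, so that they become dimmer in step with GFP brightness, and for 278 (2.34% of the genes compared) the GFP+ array was the brightest of the 3. The split is a description only, since the GFP+ array stands on both sides of it. It has no margin, so near ties decide the class of some genes. Ctss had 2941 in GFP+ and 2763 in GFP-, and Kcnk2 700 and 702. All 117 higher genes were brightest in GFP+++. Folds of 4 or more were measured for 3 higher and 204 lower genes, 176 of the latter with GFP- brighter than GFP+. A further probe set above the floor shared the direction in 37 of 39 higher genes that had one and in 418 of 428 lower genes. At the edge of the 2-fold rule, the lower genes Hpcal4 and Ggt7 lay just inside and Luzp1 (a bound) and Sorbs3 just outside it.

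The split between higher and lower depends on how the arrays are scaled. Median scaling, which sets the arrays to a common median, made 416 genes higher and 767 lower, so that the higher share of the calls went from 9.54% to 35.2%. That scaling adds 0.28 on the log2 scale to each gene above the floor on both, and the median over all genes moved from -0.02 to 0.25. A log2 fold between -0.28 and 0 therefore changes sign with that scaling. All 117 higher genes passed 2-fold with it too, but an upward shift cannot take a higher gene under it, so this is no check. Of the 278 lower genes brightest in GFP+, 147 passed it as well. Of 99 genes past 2-fold that are named by rule, 78 stayed past it. None turned direction, but a shift of 0.28 cannot turn a 2-fold difference. The 21 that then lay under 2-fold were Omp, Adcy3, Cnga4, Slc24a4, Grk3, Reep1, Rtp4, Drd2, Kcnma1, Kcnk1, Kcnk2, Scn8a, Epha7, Sema7a, Kirrel, Fez1, Hpcal4, Hmox1, Cat, Shmt2 and Olfr112. With quantile normalization 11 lay under it, namely Tubb2b and, of the former, Epha7, Fez1, Grk3, Hmox1, Hpcal4, Kcnk2, Olfr112, Rtp4, Scn8a and Shmt2. Scaling by the genes above the floor put 8 under it, which were Omp, Adcy3, Epha7, Grk3, Hpcal4, Kcnk2, Sema7a and Shmt2. Folds and list medians below are those of the deposited scaling, and a list whose sign turns is named as such.

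**Figure D1:**
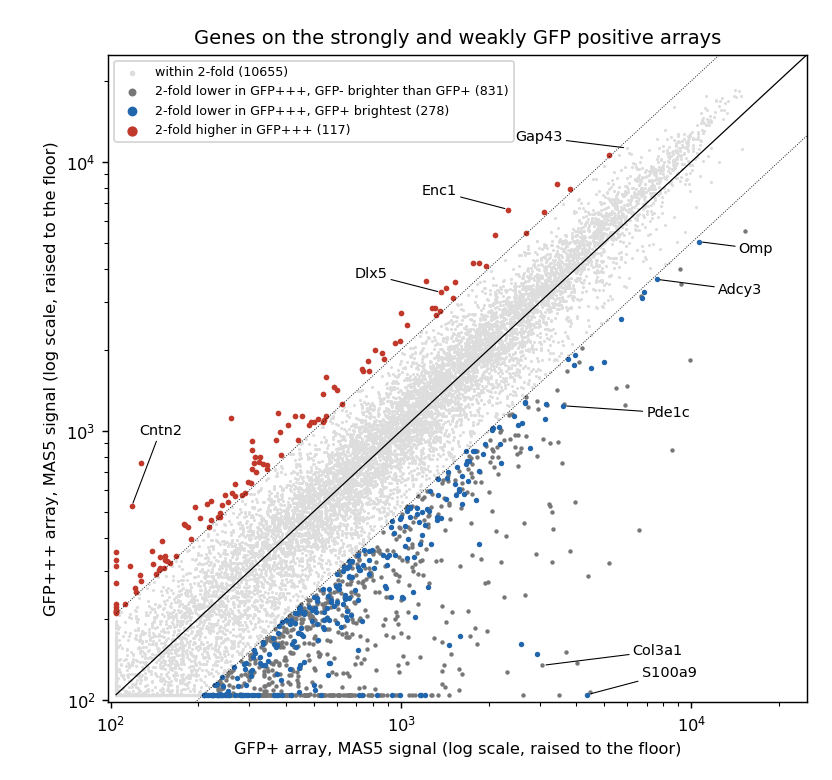
Signals of the 11881 compared genes on the GFP+ array (x axis) and the GFP+++ array (y axis), both MAS5 signals on log scales raised to the floor of 104. Red points are the 117 genes at least 2-fold higher in GFP+++, blue points the 278 lower genes brightest in GFP+, dark grey points the 831 other lower genes, and the dotted lines mark 2-fold; the cloud of lower genes reaches much farther from the diagonal than that of higher genes.

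The labels were checked against markers. The 12 immature OSN markers had a median log2 fold of 0.69, and 11 of them lay above 0, but Ablim1 alone passed 2-fold. With median scaling 6 passed it, but 1 with quantile normalization and 1 with scaling by the genes above the floor. Ablim1 itself lay under 2-fold where the median over probe sets was taken. Gap43, the growth cone protein used to define this stage, gave 11233 on the GFP+++ array, 6006 on GFP+ and 6395 on GFP-, a log2 fold of 0.90 for GFP+++ over GFP+. Gng8, a G protein gamma subunit of immature OSN, gave 6192, 3380 and 3928 on the same arrays. Both stood out on GFP+++ while GFP+ and GFP- were close to each other.

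The 11 mature OSN markers all lay below 0, with a median of -0.62, and Omp, Adcy3, Pde1c and Cidea passed 2-fold, against 2 genes with median scaling. Omp, the olfactory marker protein, gave a signal of 10615 on the GFP+ array, 2.11-fold that of GFP+++ (5041) and also above that of GFP- (7748). Gng13, the gamma subunit of mature OSN, was nearly level at 8277, 9786 and 8744, and its probe sets ran from -0.24 to 0.28. Neurog1 itself was at 1492, 1363 and 1202, with a log2 fold of 0.13 and probe sets from -0.18 to 0.13. Mature genes were thus lower in GFP+++ but far from missing there. In such bulk samples fewer cells of a type and less RNA per cell cannot be told apart.

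Markers of other cells moved with the comparison as well. Of 100 compared markers of basal, supporting, gland, microvillar, ciliated, immune, connective tissue, glial, vascular and red blood cells, 64 passed 2-fold downward in GFP+++ and 1 upward, and 41 of the folds are bounds. The 17 immune genes had summed signals of 1487 (GFP+++), 24599 (GFP+) and 30940 (GFP-), with 11 of them under the floor in GFP+++. The 12 fibroblast genes summed to 2975, 31311 and 51873, and the 13 gland genes to 8990, 38373 and 67752. Sustentacular genes, from the supporting cells of the epithelium, differed less, with sums of 50894, 68844 and 93481 and 5 of 12 genes past 2-fold. Horizontal basal cell genes summed to 916, 2872 and 4324, with 7 of 9 under the floor in GFP+++. A compared gene under the floor in GFP+++ had to pass it in GFP+, so these floor counts cannot set the 2 fractions apart. Respiratory ciliated cell genes were an exception with sums of 13571, 12998 and 9877 and none of 8 past 2-fold. By the sums of the compared genes, GFP+ held RNA of immune and connective tissue cells that GFP+++ largely lacked, which was not so for every cell type. Among sustentacular genes, Cyp2g1 (9752 in GFP+++ and 10078 in GFP+) and Sult1c1 (10243 and 10280) were nearly level, while Cyp2f2 (3976 and 9100) was lower. The part of non-neuronal cells in the lists below was not tested. Of the 64 lower markers, the neutrophil gene S100a9 alone was brightest in GFP+.

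**Figure D2:**
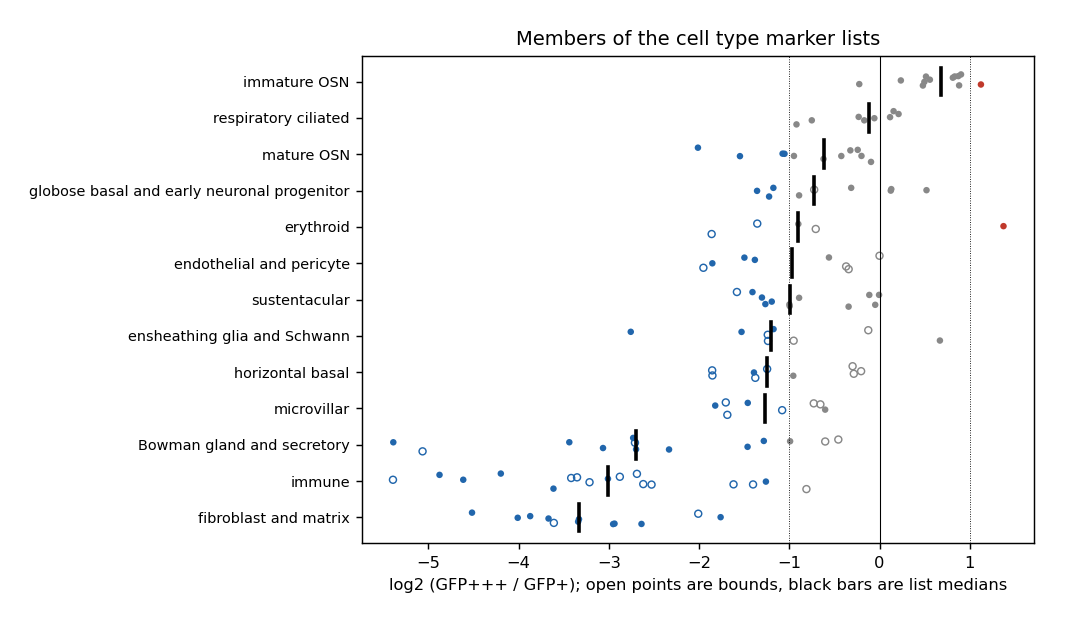
Log2 fold of GFP+++ over GFP+ (x axis) for the compared members of 13 cell type marker lists (rows), 1 point a gene, open where the value is a bound, with a black bar at the list median. The immature OSN list is centred at 0.69, the mature OSN list at -0.62, and the immune and fibroblast lists at -3.01 and -3.33.

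Among 27 lists of genes by function, medians lay between -0.91 and 0.58. The highest medians were those of cholesterol synthesis (0.58), growth cone proteins (0.48), OSN identity transcription factors (0.41) and tubulins and their partners (0.29). The lowest were those of the cell cycle (-0.91), immediate early genes (-0.75), neurotransmitter receptors (-0.71), ion channels (-0.36) and olfactory signal transduction (-0.32). All of these kept their sign under median scaling, quantile normalization and scaling by the genes above the floor. Their size did vary. With quantile normalization growth cone proteins fell to 0.21, OSN identity factors to 0.27 and tubulins to 0.15, while olfactory signal transduction moved to -0.53. With median scaling olfactory signal transduction came close to level at -0.05, and ion channels moved to -0.11. The counts past 2-fold given below stand beside 9.33% lower and 0.985% higher over all genes compared. Of all lower genes, 25.1% were brightest in GFP+.

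**Figure D3:**
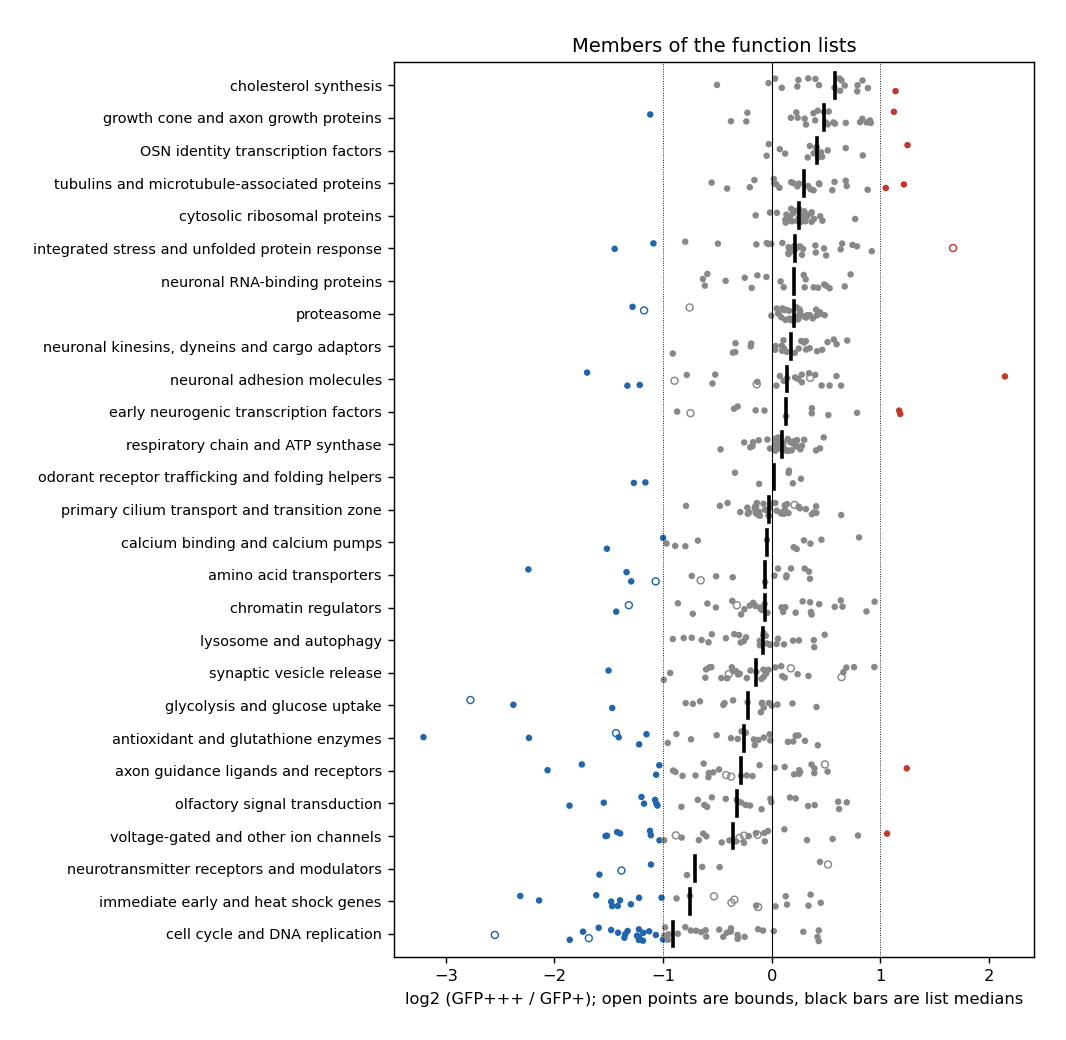
Log2 fold of GFP+++ over GFP+ (x axis) for the compared members of 27 function lists (rows), ordered by list median, 1 point a gene, with open points for bounds, red at or above 1, blue at or below -1 and a black bar at the median. Medians run from -0.91 for the cell cycle to 0.58 for cholesterol synthesis, and most members of most lists lie between the dotted 2-fold lines.

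Transcription factors of newly born neurons were mixed. Of 13 early neurogenic factors, 7 lay above and 6 below 0, and 2 were at least 2-fold higher. Nhlh1, a basic helix-loop-helix factor of cells leaving the cycle, gave 4211 on the GFP+++ array, 1856 on GFP+ and 1794 on GFP- (2.27-fold). Myt1, a zinc finger factor of early neurons, gave 1666, 739 and 581 (2.25-fold). Insm1, which drives progenitors toward terminal division, and the SoxC factor Sox11 had log2 folds of 0.52 and 0.37. Neurod1 was at -0.31, with 4078, 5069 and 6649, and Eya2, a transcriptional cofactor, at -0.87, with 204, 374 and 863. Nhlh1 and Myt1 thus stood out on GFP+++ alone, whereas Neurod1 and Eya2 were brightest in GFP-.

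Factors that set OSN identity were nearly all somewhat brighter in GFP+++, with 15 of 17 above 0. Dlx5, a homeodomain factor required for OSN axons to reach the bulb, was the member past 2-fold, with 3265 in GFP+++, 1373 in GFP+ and 1410 in GFP- (2.38-fold). Emx2, another homeodomain factor, gave 4871, 2726 and 2631 and a log2 fold of 0.84. Lhx2 and Ebf1, which act together on receptor genes, were at 0.46 and 0.41, and Ebf2 and Ebf3 at 0.41 and 0.39. Atf5, a factor of the receptor feedback pathway, was at 0.33, with signals of 16838, 13389 and 16967. Mef2a and Tshz2 lay at -0.05 and -0.03 and so change sign with median scaling.

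Proteins of the growing axon nearly all pointed upward. Of 25, 21 lay above 0, and 1 passed 2-fold upward and 1 downward, against 6 and 0 with median scaling. With quantile normalization 1 passed it upward and 0 downward, and the list median fell from 0.48 to 0.21. Marcks, a membrane-bound actin regulator, had 10596 in GFP+++, 5632 in GFP+ and 8453 in GFP- (log2 0.91). Ablim1, which links actin to guidance receptors, had 2848, 1307 and 1492 (2.18-fold). The collapsin response mediators Crmp1, Dpysl5, Dpysl4, Dpysl3 and Dpysl2 were at 0.81, 0.83, 0.68, 0.52 and 0.40. The stathmins Stmn1, Stmn2 and Stmn3, which destabilise microtubules, were at 0.48, 0.50 and 0.42, but Stmn4 was at -0.22. Fez1, a kinesin adaptor, was lower at 112, 243 and 228, close to the floor in GFP+++. The growth programme was nevertheless present in all 3 fractions, since Stmn1 gave 16984, 12171 and 17655 and Stmn3 16750, 12503 and 12169.

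The microtubule genes went the same way, with 20 of 24 above 0. Tubb2b, a neuronal beta-tubulin, had 7879 in GFP+++, 3808 in GFP+ and 4838 in GFP- (2.07-fold), and Tubb3, the common neuronal tubulin, 8626, 4681 and 5463 (log2 0.88). Mapt, which encodes tau, the axonal microtubule-binding protein, had 1699, 731 and 676 (2.32-fold), and all 4 of its probe sets above the floor lay between 0.78 and 1.22. Map6 and Map4, further microtubule-binding proteins, were at 0.69 and 0.68. Dcx, a migration and axon protein, was only at 0.24. Tuba4a, Map1a, Mapre3 and Map7 lay below 0, the lowest being Tuba4a at -0.55. Kinesins, dyneins and cargo adaptors had a median of 0.17, with 20 of 26 above 0 and 0 past 2-fold, Kif5c (0.69), the neuronal transport motor, being the highest.

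**Figure D4:**
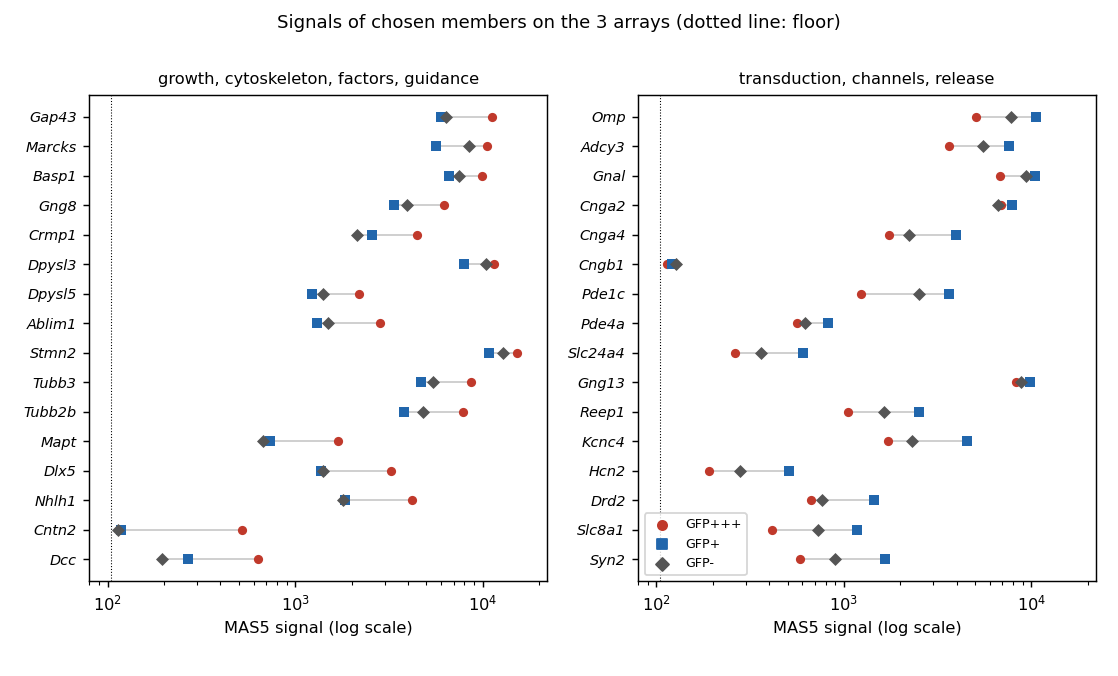
MAS5 signals (x axis, log scale) of 16 genes of growth, cytoskeleton, transcription and guidance (left) and 16 of transduction, channels and release (right) on the GFP+++ (circle), GFP+ (square) and GFP- (diamond) arrays. The genes are a selection made with their values known, and their lists also hold members of other order; in the left panel the circle lies to the right of both other arrays for all 16 genes, as for Gap43 at 11233 against 6006 and 6395, and in the right panel the square lies to the right for 15 of 16, Cngb1 being near the floor on all arrays.

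Axon guidance and adhesion genes parted by member. Of 31 guidance ligands and receptors, 12 lay above and 19 below 0, with a median of -0.28, which was -0.01 with median scaling. At least 2-fold lower were 4, against 2 with median scaling, where Epha7 and Sema7a lay under 2-fold. Dcc, a netrin receptor, was higher at 633 in GFP+++, 267 in GFP+ and 196 in GFP- (2.37-fold). Lower were the ephrin receptors Epha5 and Epha7, the ephrin Efnb2 and the semaphorin Sema7a. Epha5 had 242, 1010 and 679 (4.18-fold), but its 4 probe sets ran from -2.19 to -0.08. Sema7a had 1276, 2669 and 2018 (2.09-fold). Epha5, Epha7 and Sema7a were brightest in GFP+, and Efnb2 (363, 1220 and 1641) in GFP-. Plxna4 and Plxna3, semaphorin receptor subunits, were at -0.91 and -0.70, while their partner Nrp1 was at 0.51 and the ligands Sema3a and Sema3f at 0.39 and 0.37.

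Of 25 adhesion molecules, 16 lay above 0 with a median of 0.14. Cntn2, also called TAG-1, is an adhesion molecule of growing axons. The GFP+++ signal of 522 was 4.43-fold that of GFP+ (118), which like GFP- (114) was barely above the floor, and the other probe set above the floor was at 0.92. Ncam2, found in OSN of one zone of the epithelium, was lower at 292, 950 and 1540 (3.25-fold), and Alcam at 211, 530 and 923 (2.51-fold), both brightest in GFP-. Kirrel, an immunoglobulin family adhesion molecule, was lower with GFP+ brightest, at 443, 1029 and 827 (2.32-fold). Ncam1, L1cam and Nrcam were at 0.34, 0.46 and 0.64.

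The cascade of odorant transduction was lower in GFP+++, but not as a whole. Of 27 genes, 20 lay below 0, 7 were at least 2-fold lower and 0 higher, and 5 of the 7 were brightest in GFP+. With median scaling 2 were at least 2-fold lower, and with quantile normalization 7. The list median of -0.32 was -0.05 with median scaling and -0.53 with quantile normalization. Over all genes compared, 9.33% were at least 2-fold lower with the deposited scaling, and 25.1% of those were brightest in GFP+. Relative to the median of all genes the list stood at -0.30 with the deposited and -0.29 with the median scaling.

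In order of the cascade, the stimulatory G protein alpha subunit Gnal had 6757 in GFP+++, 10389 in GFP+ and 9335 in GFP- (log2 -0.62). Gnas, a related stimulatory alpha subunit, was at 0.39. The adenylyl cyclase Adcy3, which makes cyclic AMP, had 3653, 7578 and 5522 (2.07-fold lower), and all 4 of its probe sets lay between -1.61 and -1.05. Of the subunits of the cyclic nucleotide-gated channel, Cnga4 was 2.26-fold lower (1749, 3951 and 2232), whereas the principal subunit Cnga2 was at -0.20 (6845, 7862 and 6617). Cngb1 was near the floor throughout (113, 121 and 128). The subunits of one channel thus differed to different degrees on these arrays, with Cnga2 in GFP+++ within 1.15-fold of GFP+.

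Other members past 2-fold act on cyclic AMP, calcium or the receptor. Pde1c, a calcium-dependent phosphodiesterase of cilia, had 1237, 3615 and 2510 (2.92-fold lower), with 6 probe sets from -1.58 to -0.29. Slc24a4, the sodium, potassium and calcium exchanger that removes calcium, had 262, 602 and 363 (2.30-fold lower). Rgs2, a regulator of G protein signalling, was 3.63-fold and the receptor kinase Grk3 2.09-fold lower, both brightest in GFP-. Grk3 was close to the floor in GFP+++ (114) and lay under 2-fold with each of the 3 other scalings. Pde4a, the phosphodiesterase of the dendrite, was at -0.55, and the calmodulin kinase Camk2d at -0.60. On the other side Bex1, the arrestin Arrb2 and Bex4 were at 0.69, 0.62 and 0.61, and Slc12a2, the transporter that loads chloride into the neuron, at 0.22.

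Odorant receptors, of which each mature neuron uses a single gene, were measured for few members, since the array design names 39 by a single symbol. Of these, 28 passed the floor and 11 did not. In GFP+++ 0 passed 2-fold upward and 5 downward, against 0.985% and 9.33% of all genes compared, and 21 of 28 lay below 0. Of the 15 bounds, 14 passed the floor only in GFP+ and 1 only in GFP+++. For the 13 receptors above the floor on both arrays the median was -0.08, against -0.32 for all 28.

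The lowest receptors were Olfr65 (259 in GFP+++, 884 in GFP+ and 160 in GFP-), Olfr690 (338, 1109 and 286) and Olfr544 (167, 516 and 175), at 3.41-fold, 3.28-fold and 3.10-fold. All 3 had their peak in GFP+ and were dim in both GFP+++ and GFP-. Olfr17 and Olfr112 were at least 2.74-fold and at least 2.31-fold lower. The highest were Olfr976 (506, 323 and 55.0; log2 0.65), Olfr73 (1040, 861 and 159; 0.27), Olfr16 (0.19), Olfr74 (at least 1.13-fold) and Olfr480 (0.15). All 5 were dimmest in GFP-, and the 4 above the floor on both arrays were under 2-fold. Olfr672, the brightest receptor on the GFP+ array, gave 1574, 2974 and 649. Receptors therefore did not share one order over the fractions, and 9 of the 28 were brightest in GFP-. Of 33 vomeronasal and trace amine receptor genes 1 was compared.

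**Figure D5:**
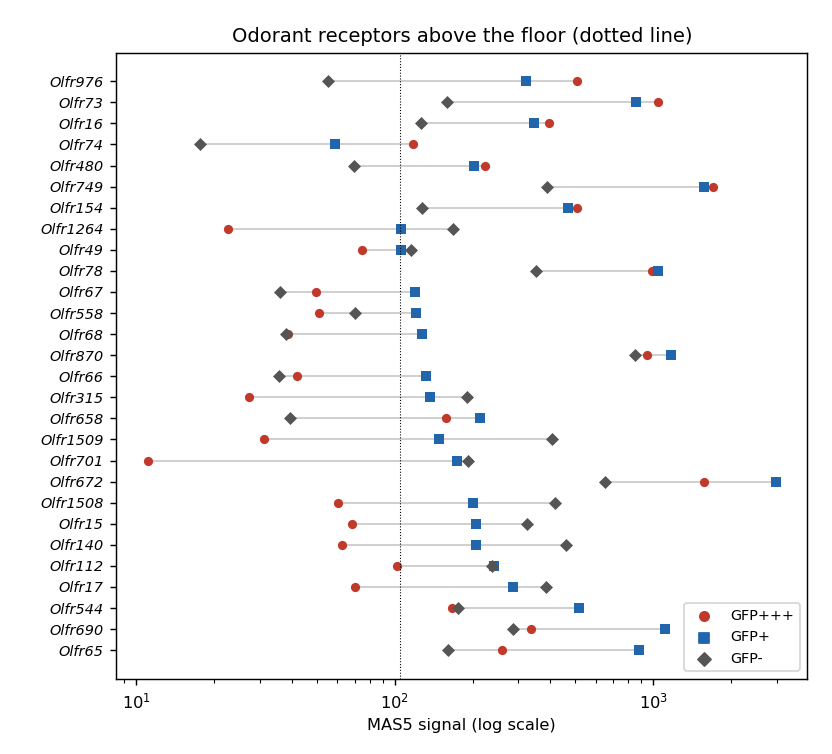
MAS5 signals (x axis, log scale) of the 28 odorant receptor genes above the floor (dotted line) on the GFP+++ (circle), GFP+ (square) and GFP- (diamond) arrays, ordered by the log2 fold of GFP+++ over GFP+. Receptors at the top, such as Olfr73, are level between GFP+++ and GFP+ and dim in GFP-, and those at the bottom, such as Olfr65, peak in GFP+.

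Genes that bring receptors to the cilium were few and mixed. Of 8 trafficking and folding helpers 4 lay above and 4 below 0, and the median of 0.02 turned to -0.10 with quantile normalization. Reep1, a receptor expression-enhancing protein, was 2.41-fold lower with GFP+ brightest (1047, 2524 and 1638). Rtp4, a relative of the receptor transporters, was 2.24-fold lower with GFP- brightest (210, 469 and 765), a call lost with median scaling, quantile normalization and the higher floor. Median scaling left 0 of these genes past 2-fold. The chaperones Hspa8 and Dnaja1 were at 0.19 and 0.16. Genes of ciliary transport and of the transition zone showed no common direction. Of 42, 18 lay above and 24 below 0, none passed 2-fold, and the median of -0.03 turned to 0.25 with median scaling and was then level with that of all genes. Dync2h1, the motor heavy chain of retrograde ciliary transport, was lowest at -0.79 (1094, 1890 and 1273), and Tctn1, a transition zone protein, highest at 0.64 (1104, 709 and 648).

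Genes of transmitter release were near level, with 12 of 35 above 0. Their median of -0.14 turned to 0.14 with median scaling, and after subtracting the median of all genes it was -0.12 with the deposited and -0.11 with the median scaling. Syn2, a synapsin that tethers vesicles, was the member past 2-fold, with 583 in GFP+++, 1651 in GFP+ and 896 in GFP- (2.83-fold lower), and its 5 probe sets ran from -1.62 to -0.63. Sv2b and Syngr1, vesicle membrane proteins, were at -0.99 and -0.94, Syp (synaptophysin) at -0.61 and the vesicular glutamate transporter Slc17a6 at -0.57. Pclo, a scaffold of the active zone, was at 0.94 (3501, 1820 and 2591), and Syt5 and Stx1a at 0.76 and 0.69. Unc13a, which primes vesicles at the release site, was at 0.66.

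Ion channels were lower as a group, with 25 of 30 below 0 and a median of -0.36, which was -0.11 with median scaling. Past 2-fold were 7 lower genes, 5 of them brightest in GFP+, and 1 higher gene, against 3 lower and 2 higher with median scaling. Of all genes compared 9.33% were at least 2-fold lower, 25.1% of those with GFP+ brightest. Kcnc4, a fast delayed rectifier, had 1717 in GFP+++, 4517 in GFP+ and 2301 in GFP- (2.63-fold). Hcn2, a pacemaker channel, had 191, 512 and 279 (2.68-fold). Kcnma1, the large conductance calcium-activated potassium channel, was 2.89-fold, the potassium channel partner Kcnip4 2.86-fold and the sodium channel Scn8a 2.18-fold lower. All 5 were brightest in GFP+, and of their signals in GFP+++ only that of Kcnc4 was far above the floor. Kcnk1 and Kcnk2, leak potassium channels, were 2.16-fold and 2.05-fold lower without that peak. Both lay under 2-fold with median scaling, as did Kcnma1 and Scn8a. Scn8a also did so with quantile normalization and the median over probe sets, and its probe sets ran from -1.12 to -0.12. With the higher floor Hcn2, Kcnma1 and Scn8a lay under 2-fold. Kcnip2 was 2.09-fold higher at 326, 156 and 86.7. The bright sodium channel subunit genes Scn9a and Scn3b were at -0.06 and -0.21 and so change sign with median scaling. The probe sets of Scn9a ran from -1.05 to 0.64 and those of Scn3b from -1.04 to -0.21.

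Receptors for transmitters and modulators were mostly under the floor, and 8 were compared. Drd2, the dopamine receptor of the OSN axon terminal, had 667, 1442 and 767 (2.16-fold lower, brightest in GFP+). Ntrk2, a neurotrophin receptor, was lower at 197, 593 and 814, and the cannabinoid receptor Cnr1 was at least 2.61-fold lower, both brightest in GFP-. Gabbr1, a subunit of the GABA-B receptor on the same terminal, was at -0.48 with GFP+ brightest. Among 13 genes that bind or move calcium the median of -0.04 turned to 0.23 with median scaling. Slc8a1, a sodium and calcium exchanger, had 411, 1177 and 729 (2.86-fold lower), and Hpcal4, a calcium sensor, 195, 390 and 261. Necab2 and Calb2 (calretinin) were at 0.80 and 0.46, Calb2 with 11992, 8737 and 8289.

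RNA-binding proteins of neurons had a median of 0.20 with 12 of 20 above 0 and 0 past 2-fold. Srrm4, which activates neuronal exons, was at 0.73, Elavl2 and Elavl4 at 0.50 and 0.48, and Ptbp1, which represses such exons, at -0.42. Chromatin regulators had 14 of 31 above 0, and their median of -0.07 turned to 0.21 with median scaling. Rcor1, the corepressor of Rest, was at 0.95 (6981, 3624 and 4715), Actl6b, a subunit of the neuronal BAF complex, at 0.87 (678, 370 and 366), and Hdac2 at 0.65. Rest, the repressor of neuronal genes, was at least 2.49-fold lower (21.9, 260 and 384), and Uhrf1, which maintains DNA methylation during replication, 2.70-fold lower. Both were brightest in GFP-.

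Cholesterol synthesis gave the highest list median, 0.58, which became 0.85 with median scaling and 0.60 with quantile normalization. Of 19 genes, 17 lay above 0 and 1, or 5 with median scaling, passed 2-fold. Mvd, the mevalonate diphosphate decarboxylase, had 531 in GFP+++, 241 in GFP+ and 327 in GFP- (2.20-fold). Pmvk, Fdps and Idi1, the neighbouring enzymes of the pathway, were at 0.88, 0.83 and 0.79. Srebf2, the transcription factor of the pathway, was at 0.79 (1680, 974 and 894), and its inhibitor Insig1 at -0.50 (935, 1327 and 1614). Of the later enzymes, Dhcr7, Nsdhl, Msmo1 and Cyp51 were at 0.67, 0.64, 0.63 and 0.62, and Fdft1, Sqle, Tm7sf2 and Sc5d at 0.24, 0.23, 0.09 and 0.03.

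In the integrated stress response 21 of 29 genes lay above 0, with a median of 0.22. Trib3 and Chac1, targets of Atf4 and Ddit3, were at 0.92 and 0.74, Ddit3 at 0.65, Ppp1r15a, the phosphatase subunit that ends the response, at 0.63, and Atf4 at 0.50. Sesn2 passed only in GFP+++ (332, 58.2 and 62.7, at least 3.18-fold), but its other probe set was at -0.30. The serine and glycine pathway genes Phgdh (2.72-fold) and Shmt2 (2.13-fold), also Atf4 targets, were lower in GFP+++, and Psat1 was at -0.80. Shmt2 lay under 2-fold in 6 of 7 alternatives, and Phgdh with the median over probe sets. Chaperones of the endoplasmic reticulum were mixed and under 2-fold, with Hsp90b1 at 0.40, Pdia4 at 0.28, Hspa5 at 0.18, Calr at -0.03, Dnajb9 at -0.05 and Dnajc3 at -0.50. The list therefore did not move as one.

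Genes of glucose use leaned lower, with 15 of 19 below 0 and a median of -0.22 that turned to 0.05 with median scaling. Slc2a3, the neuronal glucose transporter, was at least 6.84-fold lower (43.3, 714 and 620), and its other probe set above the floor was at -0.41. Hk2, a hexokinase, was at a log2 fold of -2.38 (125, 652 and 1066), and Pfkp was 2.77-fold lower (239, 661 and 468). The summed immune signal was 16.5-fold lower in GFP+++ as well, and its part in these folds was not tested. Aldoa was at -0.73, Ldhb at 0.41 and Pkm at 0.19. Respiratory chain genes were level, with a median of 0.09 (-0.10 with quantile normalization) and 0 of 47 past 2-fold. Of 17 amino acid transporters 4 were at least 2-fold lower, against 9.33% of all genes compared. The median of these transporters, -0.06, turned to 0.22 with median scaling. Slc1a2, a glutamate transporter, was 4.72-fold lower with GFP+ well above both others (263, 1242 and 412), but its other probe set was at -0.08.

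Cytosolic ribosomal protein genes lay above 0 in 32 of 34 cases, with a median of 0.25 and 0 past 2-fold. Rpl38 and Rps29, for example, were at 0.39 and 0.47. Proteasome genes behaved alike, with 28 of 32 above 0 and a median of 0.20, except for the immunoproteasome subunits Psmb10 (2.43-fold lower) and Psmb8 (at least 2.26-fold lower). With quantile normalization the medians of these lists were 0.03 and 0.07. Lysosome genes had a median of -0.08, which turned to 0.20 with median scaling, with 0 of 29 past 2-fold, the cathepsins Ctsl (-0.91) and Ctsd (-0.81) being lowest and Map1lc3b, an autophagosome protein, highest at 0.49. Antioxidant genes had a median of -0.26, which turned to 0.02 with median scaling. Of these genes 6 of 26 were at least 2-fold lower, against 9.33% of all genes compared. Gsto1 (9.22-fold) and Gstm1 (4.71-fold) were the lowest, and Gsto1, Srxn1 (2.66-fold) and Hmox1 (2.22-fold) were brightest in GFP+.

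Genes of cell division were lower in GFP+++. Of 46 cell cycle genes, 41 lay below 0 and 19 were at least 2-fold lower, 10 with median scaling. The share at least 2-fold lower over all genes compared was 9.33%. Mki67 had 753 in GFP+++, 1758 in GFP+ and 2444 in GFP- (2.34-fold), and Mcm3, a replication helicase subunit, 197, 716 and 999 (3.63-fold). Only 1 of the 19, Mcm2, was brightest in GFP+. The inhibitors of division Cdkn1b and Cdkn1c were at 0.42 and 0.43, and Cdk4 at 0.29. Immediate early and heat shock genes were lower too, 10 of 23 at least 2-fold, against the same 9.33%. Ier3 (4.98-fold), Nr4a1 (4.41-fold), Hspb1 (3.06-fold), Dusp6, Junb and Klf4 were among these, and Fos was at -0.75, whereas Jun, Dusp1 and Klf6 were at 0.45, 0.34 and 0.36. The probe sets of Klf6 ran from -0.58 to 0.36.

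Apart from the lists, the largest higher folds measured on both arrays were led by AW551984, a gene without a proper symbol that was added after its value was seen (6.01-fold, with 761, 127 and 101). Next came Cntn2 and Bfsp2, a beaded filament protein known from the lens (1116, 259 and 224; 4.32-fold). Pwwp3b (3.07-fold), Rimklb (2.98-fold), Cnpy1 (2.97-fold), Cryzl2 (2.89-fold), Enc1 (2.83-fold) and Enho (2.75-fold) followed. Enc1, an actin-binding protein of the developing nervous system, was among the brightest at 6638, 2342 and 3583, and Cnpy1 had 3610, 1214 and 1108 with all 3 probe sets at 1.36 or more. Enho encodes the peptide adropin. With GFP+ under the floor, Npr3, a natriuretic peptide receptor, was at least 3.40-fold, Sncaip, a synuclein partner, at least 2.61-fold, A4galt at least 2.12-fold and Dusp15 at least 2.05-fold higher. These genes were also brightest in GFP+++ of the 3 fractions.

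The largest lower folds belonged to genes of other cells. Lyz1 (41.9-fold), S100a8 (29.4-fold), Csf1r (24.5-fold), Col3a1 (22.9-fold), Ctss (19.9-fold), Lyz2 (18.3-fold), Lcn2 (16.1-fold) and Sparc (16.1-fold) were measured on both arrays. Below the floor in GFP+++ were S100a9 (77.6 against 4382 in GFP+), Myl9 (76.2 against 1457), Srgn and Bpifb9b, the latter being lower by 25.2-fold and 33.4-fold at the least. They encode proteins of neutrophils and macrophages, glands and connective tissue. Being brightest in GFP+ did not keep such genes out, since S100a9, Ctss, Lcn2, Ngp (at least 11.2-fold), Cxcl2 (at least 11.1-fold), Bpifb1 (at least 11.6-fold), Gsto1 and Pglyrp1 (9.14-fold) were among the 278. The next genes by size in that class were Mob3b (203, 1121 and 507; 5.52-fold), Lifr, the receptor of leukemia inhibitory factor (381, 1858 and 1337; 4.88-fold), Slc1a2 and Ajuba (at 109 in GFP+++, 4.66-fold). Further probe sets of Mob3b and Lifr were at -0.33 and -0.96. Neutrophil genes therefore stood beside OSN genes in this class, and their part in its count was not tested.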

How the data were processed

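RNA of 3 cell fractions, 1 array each, was measured on an Affymetrix mouse expression array. Per the labels' protocols, total RNA was extracted with TriReagent and labelled as biotinylated cRNA. The values deposited by the authors are linear signal intensity values, made with MAS5 per the submitters' processing notes, and the software version is not given in the sources used here. Each array has a 2% trimmed mean of 500.0. No detection calls were used.

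Of 45101 probe sets, 64 were controls, 34958 carried 1 gene symbol, 932 several and 9211 none. Of those with 1 symbol, 34754 were matched by Entrez identifier to RefSeq and 0 symbols changed. A gene was represented by its probe set of highest mean over the 3 arrays, signals were raised to the floor of 104, and the log2 fold of GFP+++ over GFP+ was taken for genes above it on either array, 10527 on both and 1354 on one, where the fold is a bound. A fold of 2 or more was counted as a call. With 1 array a group no test was possible, and the number of arrays limits the precision.

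Genes named are the 8 largest folds on both arrays and the 4 brightest bounds in each direction, the same among lower genes brightest in GFP+, the 5 highest and 5 lowest odorant receptors, list members past 2-fold where at most 8, the 2 brightest of a list and its 2 largest folds in each direction, and Omp, Gap43, Neurog1, Gng8 and Gng13. Genes ranked by fold needed a proper symbol and no further probe set going the opposite way. Other genes named were chosen after their values were seen, and not every gene the rule gives is printed. Members and lists were chosen with earlier results of these data known. Promoter windows are from RefSeq (GRCm38.p6), and longer motif spellings were searched and not used. Python 3.11.15, numpy 2.4.6 and pandas 2.3.3 were used, and the scripts were tested on simulated data. Alternatives were median, quantile and above-floor scaling, a higher floor, no floor, the median over probe sets, removal of probe sets marked as cross-hybridising, and a 1.5-fold rule.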

Additional observations from a re-analysis of the deposited data

How the results depend on the processing

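The count of lower genes stayed within 1.5 times of 1109 under all scalings (767 to 958), and the count of higher genes did not. Against 117 higher genes, 416 were counted with median scaling (415 of them brightest in GFP+++), 179 with quantile normalization (179) and 184 with scaling by the genes above the floor (184). A floor at the 65th percentile, with 9571 genes compared, gave 71 higher genes (71 brightest in GFP+++), 526 lower and 156 lower with GFP+ brightest. The 1.5-fold rule gave 759 higher (752), 2156 lower and 744 lower with GFP+ brightest. Of the 99 named genes past 2-fold, 78 stayed past it with median scaling, 88 with quantile normalization and 91 with scaling by the genes above the floor. With the higher floor 69 of 89 did, with the median over probe sets 75 of 94 and without cross-hybridising probe sets 92 of 94. All 99 did so without a floor, which is no check, since raising signals to a floor can only shrink a fold. Cntn2, Sesn2, Scn8a, Shmt2 and Slc1a5 lay under 2-fold with both the higher floor and the median over probe sets. None turned direction under these 7 settings. On the same probe set, median scaling and a higher or absent floor could not turn a 2-fold difference. No paired analysis was possible because each fraction was measured on 1 array. Leaving out a replicate was not possible for the same reason. Genes dim in GFP+++ have bounds only, so the true size of 359 of the lower folds cannot be read from these arrays.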

Other observations

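The following genes were chosen after their values were seen and belong to none of the lists, and their folds have no replicate check. Of the neuronal intermediate filament genes, Ina (alpha-internexin) was at 4205, 1775 and 1749 on the GFP+++, GFP+ and GFP- arrays and Prph (peripherin) at 3404, 1423 and 1278, whereas Nefh was level near the floor (123, 122 and 94.9) and Nefl passed the floor in GFP+ but not in GFP+++ (37.6, 186 and 292). Gpc2, a proteoglycan of growing axons, was at a log2 fold of 1.39 and Agrn at 1.05. On the other side, the coactivators Ppargc1a (465, 1324 and 781) and Ppargc1b (206, 672 and 438), which drive mitochondrial gene expression, were brightest in GFP+, although 0 of 47 respiratory chain genes passed 2-fold. Scn4b, a sodium channel beta subunit, had the same order at 1795, 4982 and 3080, as had the interferon-induced gene Ifit1 (252, 1102 and 463) and Bmp6 (264, 879 and 397), a secreted growth factor.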
